A study of Mus musculus with 20 samples.

Results

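The genes described here are the metallothioneins Mt1 and Mt2, the zinc exporter Slc30a1 and 7 genes of iron handling, which are Trf, Tfrc, Slc11a2, Fth1, Ftl1, Slc40a1 and Hmox1. They were taken from a fixed list, chosen with earlier results of these data known, and all 10 were in the count table of 14299 genes. They were followed through 589 cells in the 2 groups of cells that the authors' clustering gave, which are called responsive cells (421 cells) and cluster 1 (168 cells). The cells were primary cultures of mouse ovarian surface epithelium (OSE), the single layer of cells that covers the ovary, and the labels give no strain or age. They were held for 48 h in hormone-free, phenol red-free medium with 5% charcoal-stripped serum. For 15 days they then received either 100 nM 17β-estradiol (E2) or, as the control, its vehicle ethanol at 0.0002%. Before that both conditions grew in medium with serum, epidermal growth factor and a supplement of insulin, transferrin and selenium, so both had been given transferrin protein.

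On a Fluidigm C1 HT circuit, a column of the circuit made up 1 sequencing library. Control and E2 cells were each taken to have entered as a single suspension through their own inlet, which the sample titles do not state. The condition and its suspension cannot be told apart. Control cells filled 10 libraries with 30 to 36 cells and 3867791 to 5078340 counts each, and E2 cells filled 9 libraries with 26 to 32 cells and 2693258 to 4037847 counts each; column 13 was not analysed here. The libraries were treated as the samples, but nothing says that they were separate cultures, so p-values measure only the spread between these libraries, which may be technical. Of 9 OSE markers 8 were in the table, and their summed level was between 4616 and 5422 CPM (counts scaled to a common library total) in responsive control libraries, 3064 and 5323 CPM in responsive E2 libraries, 3769 and 6355 CPM in cluster 1 control libraries and 3855 and 5354 CPM in cluster 1 E2 libraries. Of 10 macrophage markers 4 were in the table, without the defining Adgre1, Lyz2, C1qa and C1qb, and of 8 erythroid markers Alas2 alone was. Of 6 endothelial markers 3 were, without Cdh5 and Tek, and their sum was 313 to 811 CPM over all groups. One library stood apart. For each library's responsive cells, log2 distances of genes at 100 CPM or more were taken from the other libraries of its condition. The SD of these distances was 1.17 in E2 library 15 and 0.323 to 0.483 in the other 18 libraries. Several results are therefore also given without E2 library 15.

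Metallothioneins are small, cysteine-rich proteins that bind zinc and copper. Their genes are switched on by the zinc sensor Mtf1, which binds metal response elements, and by glucocorticoid. Iron reaches most cells bound to transferrin, the product of Trf, which docks on its receptor Tfrc; Slc11a2 then moves the iron out of the endosome. Iron that is not used is stored in a shell of the ferritin chains Fth1 and Ftl1 or leaves through the exporter Slc40a1, while Hmox1 releases iron from heme. The iron regulatory proteins, encoded by Aco1 and Ireb2, bind iron-responsive elements in the RNA and set the translation of ferritin and Slc40a1 and the stability of Tfrc RNA. Control of translation is not seen in read counts.

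The regulatory letters of these genes are shown because they are what metal and iron are known to act through. Promoter windows of 250 bases before the start site were taken from RefSeq (build GRCm38.p6), and 6 of the 10 genes matched; Trf, Slc11a2, Slc40a1 and Hmox1 had no window. The core of the metal response element was searched as TGCACNC or TGCGCNC on both strands and is in capitals.
Mt1, chr8:94178839-94179088, plus strand: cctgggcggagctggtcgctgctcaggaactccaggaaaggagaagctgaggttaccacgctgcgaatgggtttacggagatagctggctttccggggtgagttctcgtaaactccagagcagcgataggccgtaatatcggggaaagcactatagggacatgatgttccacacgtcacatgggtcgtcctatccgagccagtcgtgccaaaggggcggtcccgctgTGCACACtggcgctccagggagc
Mt2, chr8:94172368-94172617, plus strand: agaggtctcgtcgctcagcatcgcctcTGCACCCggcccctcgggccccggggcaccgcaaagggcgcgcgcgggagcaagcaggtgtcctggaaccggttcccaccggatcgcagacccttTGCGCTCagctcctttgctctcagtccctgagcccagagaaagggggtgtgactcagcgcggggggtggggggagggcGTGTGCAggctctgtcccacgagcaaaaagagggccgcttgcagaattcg
The Mt1 window held 1 match, from 23 to 17 bases before the start, and the Mt2 window held 3. Start sites differ between annotations, and GENCODE has the genes start at 94179082 (Mt1) and 94172664 (Mt2). Matches outside the windows, such as near another start site, were not counted, so these are not full counts for the promoters. At least 1 match was present in 21.4% of 32851 windows of this length and at least 3 in 1.26%. Slc30a1 held 1 match and the first Tfrc window held 2 that overlap, while the Fth1 and Ftl1 windows held none. The antioxidant response element core TGACNNNGC, which overlapped no metal response match, was found once in Mt2 and once in Slc30a1, and in 10.2% of all windows. The estrogen response element, searched as GGTCA and TGACC with 3 bases between them, was in none of these 6 genes' windows, which leave out Trf and Hmox1, and in 0.0639% of all windows.

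Iron-responsive elements were searched in the coding genes' transcripts as a C, a stem of 5 paired bases (G with T allowed) and a loop of CAGTGN whose last base is not G. The loop is in capitals in the 27 bases printed here from GRCm38 transcripts.
Tfrc 3′ UTR, chr16:32631220-32631246, plus strand: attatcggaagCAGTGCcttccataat
Tfrc 3′ UTR, chr16:32631599-32631625, plus strand: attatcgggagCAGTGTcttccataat
Tfrc 3′ UTR, chr16:32631664-32631690, plus strand: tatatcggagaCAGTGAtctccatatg
Tfrc 3′ UTR, chr16:32631711-32631737, plus strand: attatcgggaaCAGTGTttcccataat
Fth1 5′ UTR, chr19:9982733-9982759, plus strand: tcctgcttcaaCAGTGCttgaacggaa
Ftl1 5′ UTR, chr7:45459780-45459806, minus strand: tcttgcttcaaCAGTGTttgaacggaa
Slc40a1 5′ UTR, chr1:45925466-45925492, minus strand: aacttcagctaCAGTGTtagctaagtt
Tfrc held 4 matches in its 3′ UTR, and Fth1, Ftl1 and Slc40a1 held 1 each in the 5′ UTR. The other 6 genes held none, and 222 of 21877 coding genes (1.01%) held a match. Elements with an unpaired base in the stem were not searched, so a gene without a match, such as Slc11a2, may still hold an element.

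In responsive cells the clearest difference between the conditions was in Trf, which fell with E2. Its level ran from 2523 to 3782 CPM in the 10 control libraries, with a median of 2883 CPM. In the 9 E2 libraries it ran from 900 to 1697 CPM, with a median of 1356 CPM. The groups did not overlap, and the E2 mean of 1324.5 ± 284 CPM (SD, n = 9) was 0.443 times the control mean of 2992 ± 421 CPM (SD, n = 10). Counts were summed over the responsive cells of each library and tested with edgeR's quasi-likelihood test, with Benjamini-Hochberg adjustment over all 10265 genes fitted. Trf had a log2 fold change of -1.18 (SE 0.13, edgeR adjusted p = 8.617e-07). Leaving out each library in turn gave -1.24 to -1.13 with edgeR adjusted p between 5.799e-08 and 4.71e-06, and without E2 library 15 the call also held. In a sum over cells, fewer cells that make a transcript and less of it per cell cannot be told apart. Here 202 of 203 control cells and 212 of 218 E2 cells had a Trf read, or 95.6% and 90.8% once each cell was thinned to 20000 reads, and the median cell held 2366 CPM and 1086 CPM respectively. The 90th percentile of E2 cells, 2577 CPM, lay close to the median control cell. Among the 6 fibroblast markers in the table Thy1 also fell (log2 fold change -2.78, edgeR adjusted p = 2.38e-06), while the sum of the 6 was 1978 to 2393 CPM in control and 1700 to 4669 CPM in E2 libraries. Their part in the level of Trf was not tested.

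Trf was the only one of the 10 genes called in responsive cells, where a call needed an adjusted p under 0.05 and a log2 fold change beyond 0.5 in either direction. Of all genes tested 1.37% were called in either direction and 0.526% were called down. Of the 10 genes 0 were called up, 4 had an unadjusted p under 0.05 (9.89% of all genes did), and their median log2 fold change was -0.09 against 0.02 over all genes.

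**Figure D1:**
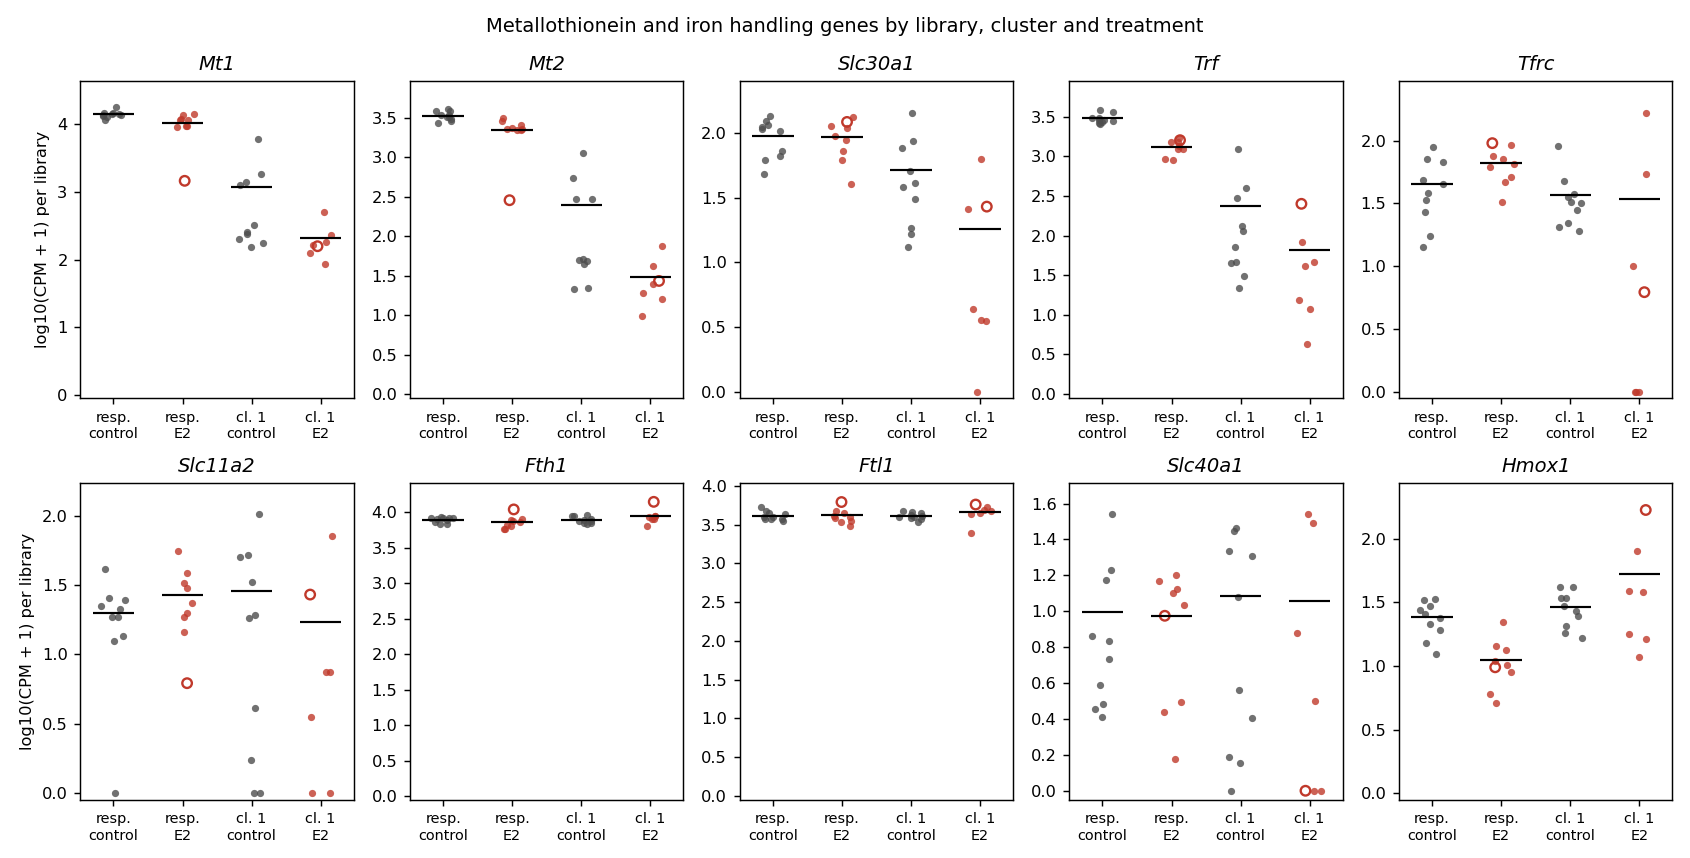
Level of each of the 10 genes in each library, as log10(CPM + 1) on the y axis, for control and E2 libraries of responsive cells and of cluster 1. Each point is 1 library, the bar is the group's mean and the hollow marker is E2 library 15; the 9 responsive E2 points of Trf all lie below the 10 control points, and for Mt1 and Mt2 the responsive points other than library 15 all lie above those of cluster 1.

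Both metallothioneins were lower in E2 libraries of responsive cells, but neither was called. Mt1 ran from 11617 to 18294 CPM in control libraries (median 13966 CPM) and from 1460 to 14018 CPM in E2 libraries (median 11575 CPM). The groups overlapped, with 5 of 9 E2 libraries below every control library. The lowest value by far was that of E2 library 15, and the next was 9026 CPM. Mt1 had a log2 fold change of -0.46 (SE 0.22, edgeR adjusted p = 0.503). Without E2 library 15 it was -0.31 (SE 0.085, edgeR adjusted p = 0.0637).

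Mt2 ran from 2688 to 4045 CPM in control libraries (median 3291 CPM). In E2 libraries it ran from 283 to 3099 CPM (median 2285 CPM). All 9 E2 libraries lay below the control median and 7 of them below every control library. Its log2 fold change was -0.60 (SE 0.23, edgeR adjusted p = 0.328). Without E2 library 15 the edgeR adjusted p was 0.00297, the smallest over the 19 fits that each left out 1 library, and the log2 fold change was -0.45 (SE 0.086), which is under the size a call needed. Leaving out any other library gave an edgeR adjusted p above 0.05.

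E2 library 15 was low for transcripts of short length as a class. Among genes at 100 CPM or more whose median coding transcript is under 700 bases, 59 of 261 (22.6%) were over 4-fold lower there than the median of the other E2 libraries, against 0 to 0.383% in the other libraries. Among longer transcripts the share was 4.45% in library 15 and 0 to 0.451% elsewhere. Mt1 (633 bases) lay -2.99 and Mt2 (449.5 bases) -3.01 log2 units from the other E2 libraries. Fth1, with a median of 592 bases also in the short class, lay 0.66 above them, Ftl1 0.65 and Trf 0.31. The lengths are medians over all annotated coding transcripts of a gene, whichever of them these cells make. The class of a single gene such as Fth1 may therefore not hold for its main transcript. The low metallothionein values were spread over its cells, since 20 of its 24 responsive cells were below the 10th percentile of Mt1 in the other 194 E2 cells (2030 CPM) and 11 of 24 were below that of Mt2. Its part in the lower E2 means is measured by the values without it, and the reason it stands apart was not tested.

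**Figure D2:**
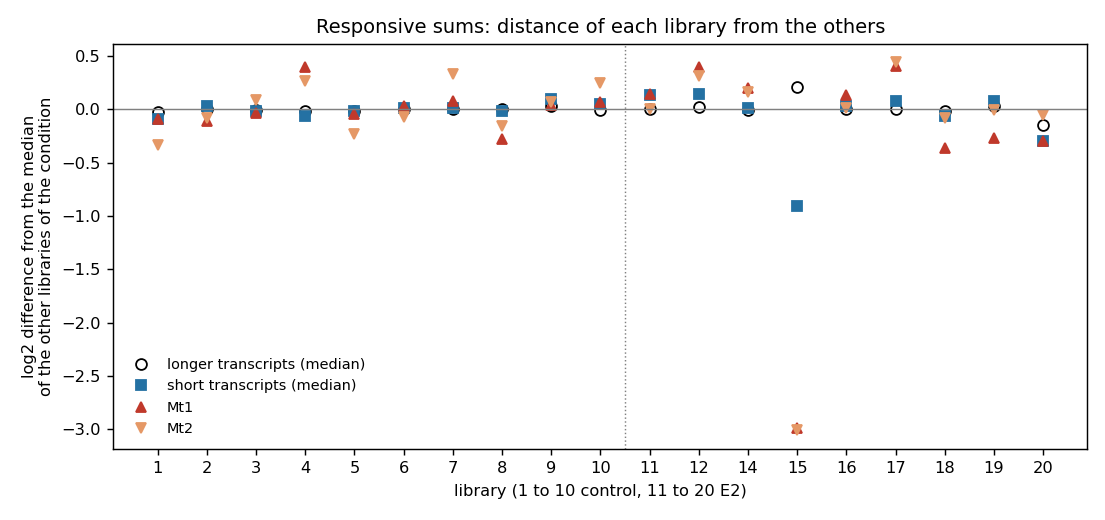
Distance of each library's responsive cells from the median of the other libraries of its condition, in log2 units on the y axis and by library number on the x axis, for Mt1, Mt2 and the medians of short and longer transcripts. E2 library 15 lies at -2.99 for Mt1 and -3.01 for Mt2, while its median short transcript lies at -0.903 and its median longer transcript at 0.213.

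The zinc exporter Slc30a1 had nearly the same mean in both conditions in responsive cells. Its level was 94.2 ± 30.1 CPM (SD, n = 10) in control and 92.3 ± 30.2 CPM (SD, n = 9) in E2 libraries, which overlapped over nearly their whole range. The log2 fold change was -0.04 (SE 0.23, edgeR adjusted p = 0.983). This standard error allows a fall about as large as that of Mt1, and a difference from the metallothioneins was not tested.

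On the uptake side, the receptor Tfrc had the opposite sign to its ligand Trf. Tfrc was 44.2 ± 24.4 CPM in control libraries and 64.8 ± 20.7 CPM in E2 libraries, and 8 of 9 E2 libraries lay at or above the control median. Its log2 fold change of 0.54 (SE 0.31) did not pass (edgeR adjusted p = 0.619). Reads for Tfrc were found in 35.5% of control and 39.0% of E2 responsive cells. Slc11a2 was at 18.9 ± 10.46 CPM in control and 25.7 ± 14.8 CPM in E2 libraries, with a log2 fold change of 0.43 (SE 0.52, edgeR adjusted p = 0.891).

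The ferritin chains were nearly level between the conditions, with the smallest standard errors of the set. Fth1 was 7778 ± 633 CPM in control and 7309 ± 1565 CPM in E2 libraries, with a log2 fold change of -0.10 (SE 0.10, edgeR adjusted p = 0.877). Ftl1 was 4142 ± 585 CPM in control and 4161 ± 937 CPM in E2 libraries, with a log2 fold change of -0.0015 (SE 0.12, edgeR adjusted p = 0.998). Without E2 library 15 Fth1 stood at -0.18 and Ftl1 at -0.09. Every cell of both clusters had reads for both chains. The processed copies looked at took few counts. Those of Fth-ps2 were 0.0074% of those of Fth1, and those of Ftl1-ps1 and Ftl2-ps were 0.0799% and 0.00757% of those of Ftl1. Other copies, and reads of copies given to the parent gene, were not measured.

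Slc40a1, the exporter, was near the limit of these libraries, with 236 reads over all responsive control cells and 222 over the E2 cells. It was 8.86 ± 10.1 CPM in control and 8.37 ± 5.54 CPM in E2 libraries, with a log2 fold change of -0.08 (SE 0.67, edgeR adjusted p = 0.989). A change could not be detected at this depth unless it was large.

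Hmox1 was about as much lower with E2 as Trf was, on far fewer reads. It ran from 11.4 to 32.6 CPM in control libraries (median 23.8 CPM) and from 4.08 to 21.1 CPM in E2 libraries (median 9.22 CPM), and 6 of 9 E2 libraries lay below every control library. The log2 fold change was -1.18 (SE 0.40), which did not pass in edgeR (adjusted p = 0.216) but was called by DESeq2 at -1.18 (adjusted p = 0.0392). Over the 8 other settings the adjusted p ran from 0.0392 to 0.334. The share of responsive cells with an Hmox1 read was 49.3% in control (42.2 to 56.4%, exact binomial interval at 95%) and 31.7% with E2 (25.5 to 38.3%). Control cells were read more deeply, at a median of 143233 against 117809 counts. With each cell thinned to 20000 reads the shares were 24.6% (18.9 to 31.2%) and 12.8% (8.71 to 18.03%). These intervals cover counting error only. The summed level of the 4 macrophage markers in the table, whose cells are known to express Hmox1, was 58.1 to 160 CPM in control and 33.5 to 167 CPM in E2 libraries, and its part was not tested.

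**Figure D3:**
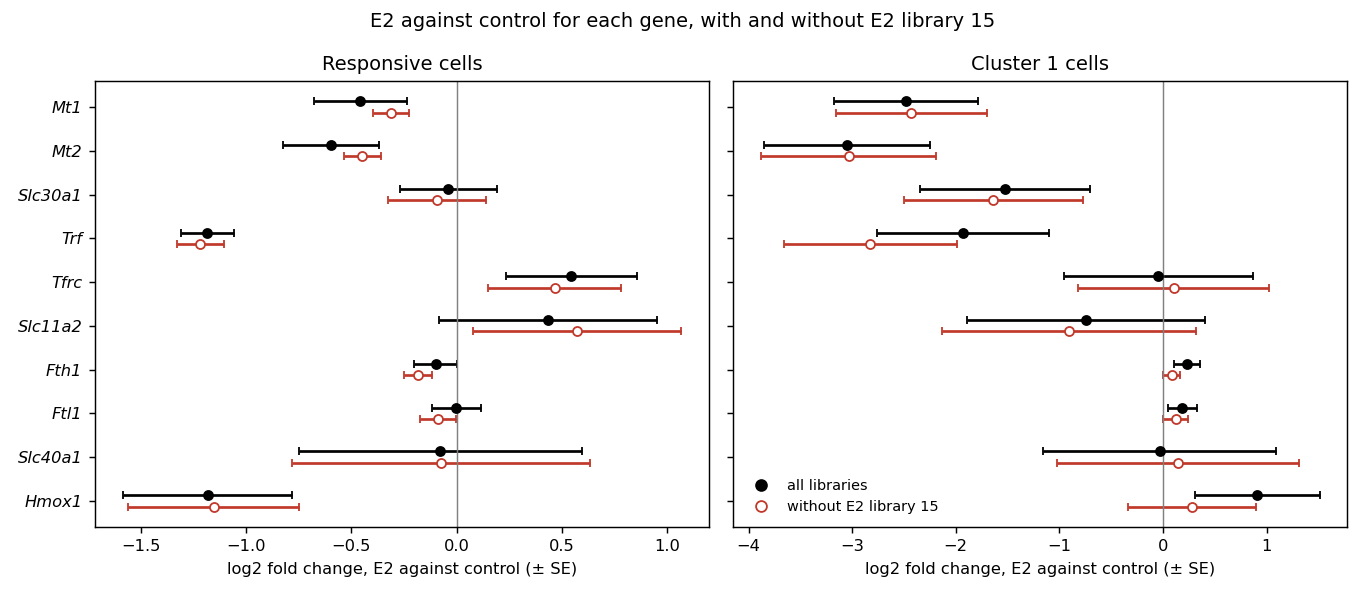
Log2 fold change of E2 against control for each of the 10 genes (x axis, with the standard error as bars), in responsive cells and in cluster 1, with and without E2 library 15. In responsive cells Trf stands at -1.18 with a narrow bar and Ftl1 at 0, and in cluster 1 Mt1 and Mt2 stand at -2.48 and -3.05 with wide bars.

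The deposited trajectory gave a finer division of the same cells, and its branches are described here by plain CPM with no test. State 2 held 143 control cells, which had Trf at 2971 ± 550 CPM (SD, n = 10 libraries). E2 cells had 1630 ± 492 CPM in state 4 (n = 8), 1107 ± 262 CPM in state 5 (n = 9) and 1606 ± 481 CPM in state 6 (n = 5), all with lower means than control state 2. The 6 control cells of state 7 used, in 2 libraries, had 2883 CPM. State 1 was low in both conditions, at 637 ± 629 CPM in control (n = 10) and 59.8 ± 70.3 CPM in E2 (n = 7). It held 148 control and 41 E2 cells, while cluster 1 held 126 and 42. Responsive cells were thus among the control cells of state 1, and the mix of clusters there may differ between the conditions. In E2 states 4, 5 and 6 the mean of Mt1 was between 8418 and 9964 CPM, against 14654 ± 2655 CPM in control state 2, 7767 CPM in control state 7 and 3282 ± 3300 CPM in control state 1. Hmox1 was 27.1 ± 10.6 CPM in state 2 and 13.1, 8.48 and 3.84 CPM in E2 states 4, 5 and 6, and with SDs of 20.3, 5.13 and 3.30 CPM the E2 states were within each other's spread.

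Levels of Trf were also set side by side in cells with and without a read for the estrogen receptor gene Esr1 or for Greb1, a known estrogen target. Among responsive control cells it was 3362 ± 1270 CPM in cells with an Esr1 read and 2787 ± 550 CPM in cells without. Among responsive E2 cells the values were 1500 ± 651 and 1172 ± 230 CPM, so both kinds of E2 cell had a mean below both kinds of control cell. Responsive E2 cells with a Greb1 read (47 cells) had 1202 ± 607 CPM and those without had 1309 ± 307 CPM. A cell without a read may still hold the transcript.

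For Mt1, Mt2 and Trf the clusters differed far more than the conditions did. The clusters were made from the expression of these same cells, so these differences are a description with no test. Mt1 had a log2 fold change of -4.43 (SE 0.44), Mt2 of -4.69 (SE 0.48) and Trf of -4.01 (SE 0.43) in cluster 1 against responsive cells. In 17 of 17 libraries with both sums, each of these 3 genes was lower in cluster 1. Both sums come from the same libraries, and with the library as a replicate block the values were -5.13 (SE 0.38), -5.58 (SE 0.44) and -4.98 (SE 0.42). The median library had in cluster 1 1.96% of its responsive level of Mt1 among control and 1.69% among E2 libraries. For Mt2 these medians were 1.5% and 1.04%, and for Trf 3.16% and 3.36%. Ratios of the group means were higher in control, at 8.37% for Mt1, 7.40% for Mt2 and 7.89% for Trf against 2.17%, 1.41% and 4.72% in E2 libraries, but without control library 9 the control ratios were 4.6%, 4.5% and 4.22%.

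The other genes were not depleted to that degree. Slc30a1 was lower in cluster 1 in 15 of 17 libraries (log2 fold change -1.50, SE 0.38, and -1.98 with the library as a replicate block). The ferritin chains had about the same level in both clusters, with cluster 1 at 100.2% of responsive cells for Fth1 and 99.3% for Ftl1 in control libraries, and 120.2% and 110.7% in E2 libraries. Tfrc was at -0.57 (SE 0.44), Slc11a2 at 0.03 (SE 0.62) and Slc40a1 at 0.32 (SE 0.65), and with the block at -1.07 (SE 0.57), -1.13 (SE 0.94) and -0.40 (SE 0.82). Hmox1 was higher in cluster 1, at 1.16 (SE 0.37), in 13 of 17 libraries and 7 of 7 E2 libraries. Without E2 library 15 this was 0.83. The summed fibroblast markers, 6 of 7 in the table, were 2723 to 4396 CPM in cluster 1 control libraries against 1978 to 2393 CPM in responsive ones. Most of these markers went the other way than their sum. In cluster 1 against responsive cells 2 had a positive and 4 a negative log2 fold change, with a median of -0.62. Of 8 granulosa and theca markers 3 were in the table, without the defining Amh, Foxl2, Fshr and Cyp19a1, and their sum was 105.5 to 523 CPM in cluster 1 control libraries against 33.0 to 89.5 CPM in responsive ones. Median depth per control cell was 112126 counts in cluster 1 and 143233 in responsive cells. The part of these in the differences between clusters was not tested.

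Single cells showed the same gap between the clusters. The median control cell had 12004 CPM of Mt1 in responsive cells and 161 CPM in cluster 1, and 5 of 126 cluster 1 control cells reached the 10th percentile of responsive control cells, 4352.5 CPM. For Mt2 6 of 126 and for Trf 10 of 126 reached it. Among E2 cells 2 of 42, 7 of 42 and 7 of 42 cluster 1 cells reached the 10th percentile of their own responsive cells for Mt1, Mt2 and Trf. Low metallothionein did not mean none, since 126 of 126 cluster 1 control cells and 41 of 42 E2 cells had an Mt1 read. Reads of free RNA in cells that do not make a gene were not measured here.

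**Figure D4:**
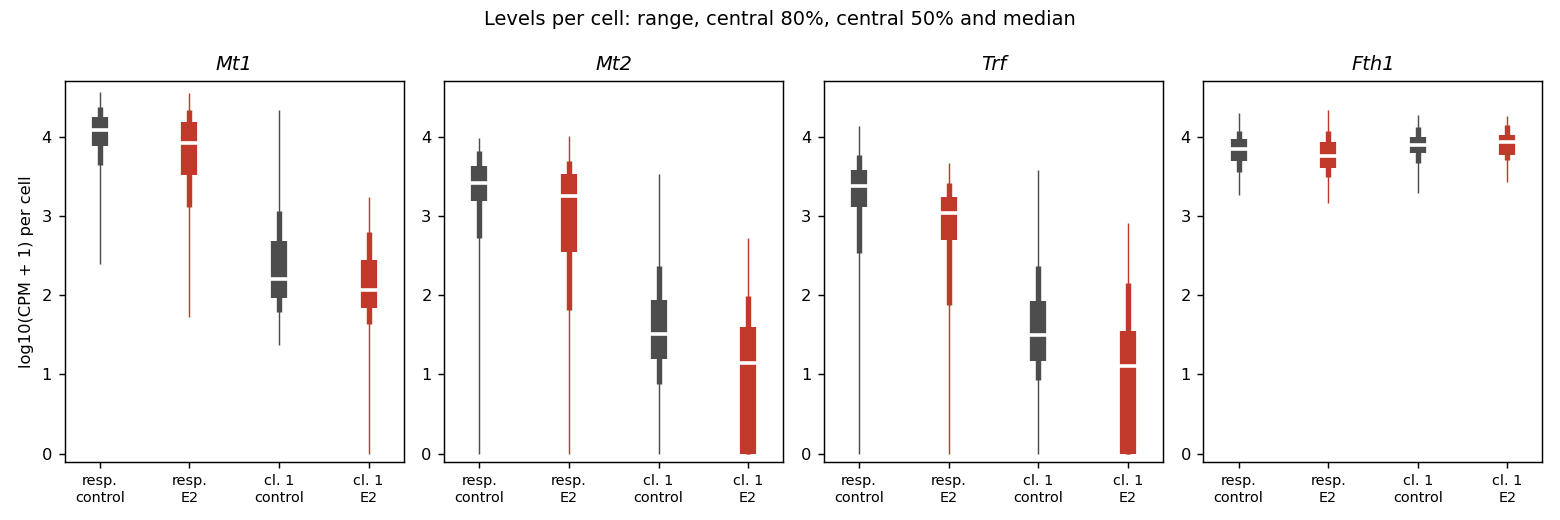
Level per cell of Mt1, Mt2, Trf and Fth1, as log10(CPM + 1) on the y axis, for control and E2 cells of both clusters, with the range (thin line), the 10th to 90th percentile (thick line), the 25th to 75th percentile (box) and the median (white bar). The median of Mt1 is 12004 CPM in responsive control cells, 8226 in responsive E2 cells, 161 in cluster 1 control cells and 117 in cluster 1 E2 cells, while Fth1 covers about the same range in all 4 groups.

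Within cluster 1 none of the 10 genes was called between E2 and control, where 7 of 8340 genes (0.0839%) were called. This comparison rests on 10 control libraries with 8 to 18 cells and on 39 E2 cells in 7 libraries, with at least 3 cells required in a sum. In edgeR 3 of the 10 genes had an unadjusted p under 0.05 (7.46% of all genes did), limma-voom called none, and DESeq2 called Mt2. The median log2 fold change was -0.40 against -0.06 over all genes.

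Mt1 in cluster 1 ran from 149.7 to 5970.5 CPM in control libraries (median 288 CPM). In E2 libraries it ran from 85.6 to 507.5 CPM (median 162 CPM). The groups overlapped, with 2 of 7 E2 libraries below every control library. The log2 fold change was -2.48 (SE 0.69, edgeR adjusted p = 0.244). Mt2 ran from 20.5 to 1122.9 CPM (median 49.4 CPM) in control and from 8.68 to 72.9 CPM (median 23.6 CPM) in E2 libraries, with a log2 fold change of -3.05 (SE 0.80, edgeR adjusted p = 0.205). By DESeq2 it was -2.94 (adjusted p = 0.00776), and over the other settings the adjusted p ran from that value to 0.707. Trf ran from 21.0 to 1219.2 CPM (median 91.0 CPM) in control and from 3.29 to 250 CPM (median 40.5 CPM) in E2 libraries, at -1.93 (SE 0.83, edgeR adjusted p = 0.594). Without E2 library 15, whose 3 cells gave the 250 CPM, Trf stood at -2.83 and was also not called.

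Few cells carried these cluster 1 levels. Of 14217 Mt1 reads in cluster 1 control cells, 1 cell of control library 9 gave 31.4%, and the 13 highest of 126 cells gave 80.5%. Without control library 9 the log2 fold change was -1.60 for Mt1 (edgeR adjusted p = 0.490), -2.31 for Mt2 (edgeR adjusted p = 0.465) and -0.99 for Trf (edgeR adjusted p = 0.903). The median cell, which those few do not move, had 161 CPM of Mt1 in control and 117 CPM in E2. For Mt2 a read was found in 93.7% of control and 61.9% of E2 cells, and after thinning in 49.2% (40.2 to 58.3%) and 33.3% (19.6 to 49.5%). These intervals cover counting error only and leave out the spread between libraries.

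The other genes of cluster 1 were within the spread between libraries. Slc30a1 was 50.9 ± 40.8 CPM in control and 17.3 ± 22.5 CPM in E2 libraries, 1 of which had no read. Its log2 fold change of -1.52 (SE 0.82) had an edgeR adjusted p of 0.731. Hmox1 was 27.9 ± 9.09 CPM in control and 51.9 ± 55.7 CPM in E2 libraries, at 0.91 (SE 0.60, edgeR adjusted p = 0.812), and without E2 library 15, which held 3 cluster 1 cells and 166.7 CPM, it was 0.28. Fth1 and Ftl1 stood at 0.23 (SE 0.13) and 0.19 (SE 0.14), and without E2 library 15 at 0.09 and 0.12. Tfrc had no read in 3 of 7 E2 libraries, Slc11a2 in 2 and Slc40a1 in 3, and these 3 genes stood at -0.05, -0.74 and -0.03 with SEs of 0.91 to 1.15. The value of Tfrc hung on the method, with -2.19 by limma-voom (adjusted p = 0.518) and -2.43 on mean CPM (limma adjusted p = 0.224).

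Whether E2 acted differently in the clusters was tested as an interaction in edgeR over all library and cluster sums, where 0.184% of 11398 genes were called. None of the 10 genes was called by edgeR or limma-voom, and 4 had an unadjusted edgeR p under 0.05 (10.9% of all genes did). A negative value means a lower fold change in cluster 1. The sizes hung on the method. This fit does not use that both sums come from 1 library, and what moved the sizes between methods was not tested. Mt2 stood at -2.50 (SE 0.78, edgeR adjusted p = 0.168), Mt1 at -2.06 (SE 0.70, edgeR adjusted p = 0.210) and Slc30a1 at -1.51 (SE 0.72, edgeR adjusted p = 0.417). With the library as a replicate block Mt2 was -1.15 (SE 0.79, edgeR adjusted p = 0.751), Mt1 -0.72 (SE 0.68, edgeR adjusted p = 0.832) and Slc30a1 -2.08 (SE 0.86, edgeR adjusted p = 0.576), and limma-voom gave -0.85, -0.73 and -2.07. Tfrc stood at -0.62 (SE 0.88) and, with the block, at -2.92 (SE 1.14, edgeR adjusted p = 0.541) and on mean CPM at -3.004 (limma adjusted p = 0.142). Hmox1 stood at 2.03 (SE 0.65, edgeR adjusted p = 0.179), which DESeq2 called at 2.28 (adjusted p = 0.0242), and without E2 library 15 it was 1.38 (edgeR adjusted p = 0.430) and with the block 1.45 (edgeR adjusted p = 0.684). Trf stood at -0.89 (SE 0.78, edgeR adjusted p = 0.767), with the block at -0.28, without control library 9 at 0.02 and without E2 library 15 at -1.67. The fall of Trf was thus called in responsive cells and not in cluster 1, and a difference between the clusters was not shown.

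Levels of the metallothioneins went together from cell to cell. The Pearson correlation of Mt1 and Mt2 over cells, on log-normalized counts, was 0.71 in 203 responsive control cells, 0.83 in 218 responsive E2 cells and 0.82 in 126 cluster 1 control cells. Mt1 and Trf, which both separate the clusters, had correlations of 0.12 and 0.01 in the responsive control and E2 cells and of 0.76 in cluster 1 control cells. Fth1 and Ftl1 had 0.45, 0.29 and 0.32 in these 3 groups, but 0.20, 0.16 and 0.11 once each cell was thinned to 20000 reads. After thinning Mt1 and Mt2 had 0.72, 0.84 and 0.80, and Mt1 and Trf 0.02, -0.0035 and 0.66. Cells share libraries and depth, so these are descriptions. In the authors' imputed values, which share counts between similar cells, Mt1 and Trf correlated at 0.92 and 0.79 in the responsive groups and 0.98 in cluster 1 control cells, and Fth1 and Ftl1 at 0.89, 0.73 and 0.90.

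Over the 19 responsive sums the genes with the pattern most like Mt1, by Pearson correlation of log2 CPM, were Rps27rt (0.984), Mt2 (0.984), Atpif1 (0.979), Rpl38 (0.977) and Mrpl52 (0.974). The 4 that are not Mt2 have median coding transcripts of 367.5 to 500.5 bases. Without E2 library 15 the first 5 were Mt2 (0.861), Rps27rt (0.843), Tmbim1 (0.833), Arpc1b (0.819) and Gm5244 (0.801). For Mt2 all 19 sums gave Mt1, Atpif1, Mrpl52, Rpl38 and Rps27rt, and without library 15 Mt1, Sparc, Psap, Cd63 and Atpif1. For Trf they were Thy1 (0.916), Sparc (0.874), C1s1 (0.866), Cavin2 (0.853) and Mgp (0.848), and 4 of these 5 stayed in the first 5 without library 15, where C3 took the place of Mgp. These sums hold both conditions, so genes that differ with E2 rank high for Trf.

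The wider pathways were read from 8 lists of metal, heme and stress genes. In the list for cytosolic iron supply and storage 15 of 22 genes were fitted in responsive cells, with Cybrd1 called up and Trf called down. Cybrd1, a reductase that turns ferric into ferrous iron, ran from 29.7 to 112.6 CPM (median 76.0 CPM) in control and from 79.1 to 227.5 CPM (median 114 CPM) in E2 libraries. Of 9 E2 libraries 5 lay above every control library. Its log2 fold change was 0.89 (SE 0.22, edgeR adjusted p = 0.0371), and 0.848% of all genes were called up. The call was lost in 11 of the 19 fits that left out 1 library, which were those without E2 libraries 12, 15, 17 or 18 or control libraries 1, 3, 5, 6, 8, 9 or 10, with edgeR adjusted p up to 0.0773. Without the filter on low counts the edgeR adjusted p was 0.0574 and after thinning 0.181, and on mean CPM the limma adjusted p was 0.220.

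The other 7 lists had no gene called by edgeR in responsive cells. They were iron sensing and the hepcidin axis (5 genes fitted), mitochondrial iron and iron-sulphur assembly (14), heme synthesis and breakdown (15), zinc transport and sensing (19), copper handling (10), oxidative stress genes of the Nrf2 pathway (18) and genes induced by glucocorticoid (10). They had 0, 0, 3, 3, 0, 3 and 4 genes with an unadjusted p under 0.05, in that order, against 9.89% of all genes, and DESeq2 called Hmox1 alone among them. These counts repeat some of the genes described above. Mt1 and Mt2 are counted in both the zinc and the glucocorticoid list, and Hmox1 in both the heme and the oxidative stress list. The median log2 fold changes of the 8 lists lay between -0.12 and 0.36, against 0.02 over all genes. In cluster 1 edgeR and limma-voom called no gene of any of the 8 lists, with 0 to 4 genes at an unadjusted p under 0.05 against 7.46% of all genes, and DESeq2 called Mt2.

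The regulators were not called in responsive cells. Mtf1, the zinc sensor, stood at 0.15 (SE 0.81), with 10.9 ± 7.80 CPM in control and 12.2 ± 15.0 CPM in E2 libraries. The iron regulatory proteins stood at 0.54 (SE 0.34) for Aco1 and 0.36 (SE 0.32) for Ireb2. Nfe2l2, which encodes the stress factor Nrf2, stood at 0.31 (SE 0.21). None of these 4 passed in edgeR. Their standard errors allow a rise as large as the falls seen for the metallothioneins, and for Mtf1 also such a fall.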

How the data were processed

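Single-cell RNA-seq of mouse OSE cells was analysed in 19 libraries. Per the labels, reads were pseudoaligned with kallisto 0.44.0 (build GRCm38), and the authors summed transcripts to genes with tximport. The deposited estimated counts are not normalized and had passed the authors' filters on cells and genes. They also deposited log2 values scaled by scran size factors and imputed with MAGIC (the base is not stated and was taken as 2). The deposited metadata hold the mitochondrial percent, the size factor (a ratio), the pseudotime score and the labels of SC3 clusters and monocle states. Reads carry no molecular identifiers. Doublets were not called here, since the authors kept capture sites seen to hold 1 live cell. No cell name was shared between libraries (0).

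Counts were summed per library and cluster (at least 3 cells), rounded and fitted with edgeR 4.0.16 (R 4.3.3; TMM, filterByExpr, quasi-likelihood test, Benjamini-Hochberg adjustment over all genes fitted). Cluster 1 is label 2 of the deposited labels for 2 clusters. CPM used TMM library sizes, except for trajectory states and cells split by a read, which used plain totals. A cell had a read at a count above 0.5, and thinning drew 20000 reads per cell. Standard errors were taken as the size of the log2 fold change over the square root of edgeR's F. The scripts were tested on simulated data. Alternatives were DESeq2 1.42.0, limma 3.58.1 with voom, no TMM, no filter, thinning, at least 5 cells, mean CPM, 3 clusters, all cells and leaving out each library. Leaving out E2 library 15 or control library 9 in the interaction, the cluster contrast, the cluster shares and the correlations was chosen after seeing the data, as was the Greb1 split within responsive E2 cells. Marker, pathway and member lists were chosen with earlier results of these data known. All 10 members are named; of each list up to 3 called genes per direction, and 4 regulators, are named. Symbols came from GENCODE annotation, where 14135 of 14299 genes had one.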

Additional observations from a re-analysis of the deposited data

Results flagged for a closer look

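Of 40 values of a gene in a group of libraries, 16 had a highest or lowest library whose gap to the next was large for the group's range (Dixon's test at 95%). Chance flags about 1 in 20 groups only where values are normally distributed. The test was run on CPM without a log scale, and some groups were clearly skewed. Tfrc in cluster 1 E2 libraries, for example, had a median of 5.21 CPM and a highest value of 166.22 CPM. The number of flags that chance gives here was not tested, so 16 of 40 cannot be set against 1 in 20. The levels of 1 library are also not independent of each other.

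In E2 library 15, responsive cells held 1459.7 CPM of Mt1 and 283.38 CPM of Mt2, the lowest of 9 libraries, and 10876 CPM of Fth1, the highest. Its 3 cluster 1 cells held 250.05 CPM of Trf and 13904 CPM of Fth1, the highest of 7 libraries. This library was also low for other short transcripts, and the cause was not tested.

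In control library 9, cluster 1 cells held 5970.5 CPM of Mt1, 1122.9 CPM of Mt2 and 1219.2 CPM of Trf, each the highest of 10 libraries. The library had 8 cluster 1 cells, and 1 of them held 31.4% of all Mt1 reads of cluster 1 control cells.

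In cluster 1 of E2 library 18, Slc30a1 was 61.781 CPM, Tfrc 166.22 CPM and Slc11a2 70.607 CPM, each the highest of 7 libraries. Mt1 reached 507.54 CPM in cluster 1 of E2 library 20. The other high values were Mt1 at 18294 CPM in responsive cells of control library 4, Tfrc at 90.21 CPM in cluster 1 of control library 4, Slc11a2 at 101.94 CPM in cluster 1 of control library 2 and Slc40a1 at 33.828 CPM in responsive cells of control library 7.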

How the results depend on the processing

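The fall of Trf in responsive cells kept its call under all 9 other settings, from -1.21 to -0.81 on the log2 scale, and in all 19 fits without 1 library. Of 379 values of single genes under other settings, 344 counted as unchanged. For E2 against control and the interaction this meant the same direction and side of the threshold. Between clusters, where no threshold applied, it meant the same direction and a shift under 1 standard error. The number of genes called in responsive cells was 234 with DESeq2 against 141. In cluster 1 (7 genes called) it was 52 with DESeq2, 4 without TMM, 1 without the filter, 0 after thinning and 14 on mean CPM, and 1 to 9 when 1 library was left out. For the interaction (21 genes called) it was 98 with DESeq2, 13 with voom, 12 after thinning and 47 on mean CPM. Labels number each library once, so nothing pairs control with E2 libraries. The library as a replicate block was used only between clusters, where the interaction then had 0 genes called and 902 at an unadjusted p under 0.05.

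Signs that turned belonged to genes within their error. In responsive cells Ftl1 was 0.00462 with DESeq2, 0.0125 thinned and 0.0431 over all cells; Slc30a1 was 0.0202 thinned and 0.13 over all cells; Slc40a1 was 0.27 and Mtf1 -0.18 with voom, and Mtf1 -0.10 on mean CPM. In cluster 1 Slc40a1 was 0.0134 with DESeq2, 0.25 with voom and 0.14 with at least 5 cells per sum, and Tfrc was 0.10 with at least 5 cells and 0.14 with labels for 3 clusters. For the interaction Slc40a1 was -0.0652 with voom, -0.00815 without the filter, -0.61 on mean CPM and -0.10 with the block; Mtf1 was -0.28 with voom, -1.002 on mean CPM and -3.79 with the block. With the block, cluster 1 against responsive cells was -1.13 for Slc11a2 and -0.40 for Slc40a1. Leaving out 1 library gave, in responsive cells, -0.12 to 0.0602 for Slc30a1, -0.0874 to 0.0485 for Ftl1, -0.22 to 0.46 for Slc40a1 and -0.53 to 0.36 for Mtf1. In cluster 1 it gave -1.64 to 0.22 for Tfrc and -0.72 to 0.18 for Slc40a1, for the interaction -1.67 to 0.0157 for Trf, and between clusters -0.0342 to 0.0332 for Slc11a2. The median log2 fold change of all genes in cluster 1 moved from -0.06 to -0.38 with voom, -0.23 without the filter, -0.12 without TMM and -0.60 on mean CPM, and that of the interaction from -0.19 to -0.34 with voom, -0.56 on mean CPM and -0.53 with the block.

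In cluster 1 the standard error of E2 against control was 0.60 to 1.15 for the 8 genes other than the ferritin chains.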
